A study of Saccharomyces cerevisiae with 17 samples.

Results

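Cluster 1 was the smaller of the pair of clusters into which the authors divided the H3K4me2 peaks of yeast cells with wild-type Cps25. Its members were chosen by the cluster number that their peak table gives each peak, and it held 829 of the 4393 listed peaks (18.9%). The other 3564 peaks were cluster 2. No source used here states how that number was made, so the height, width and shape of the H3K4me2 signal, and possibly H3K4me3 as well, may have set it. Each contrast between the clusters is therefore given as a description, with no test. Genes were assigned by position: a gene belonged to a peak when its start codon lay inside that peak. By this rule 851 of the 6002 nuclear protein-coding genes (14.2%) had their start codon in a cluster 1 peak and 3454 had it in a cluster 2 peak. Cluster 1 thus held 19.8% of the 4305 genes whose start codon lay in any listed H3K4me2 peak.

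The series profiled 2 methylation states of histone H3 by chromatin immunoprecipitation and sequencing in 17 libraries of budding yeast (Saccharomyces cerevisiae, strain BY4741A). Per the labels the genotypes were Cps25 A142D, a CPS25 deletion, a SET1 deletion and wild-type Cps25, each with an H3K4me2 and an H3K4me3 antibody and 2 replicates, and 1 library was input. Cells grew exponentially in YPD, a rich glucose medium, and were fixed with formaldehyde, and the antibodies were rabbit polyclonal sera made by the laboratory. The lists used were those of replicate 1 for H3K4me2 and H3K4me3 in set1 deletion cells and for H3K4me2 and H3K4me3 in Cps25 wild-type cells. The labels do not state whether wild-type Cps25 was the unaltered gene or a reintroduced construct. Each list stood alone in its group, so no spread between replicates could be estimated. The depth of the libraries is unknown.

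Methylation of lysine 4 of histone H3 is laid down in yeast by COMPASS, a complex built around the methyltransferase Set1. The modification follows transcription: trimethylation sits at the start of transcribed genes, dimethylation reaches further into the gene body, and monomethylation lies further downstream still. SDC1 encodes Cps25, a COMPASS subunit whose mammalian counterpart is Dpy-30. In yeast, H3K4me2 near gene starts is read by the Set3 histone deacetylase complex.

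Cluster 1 peaks were broader and scored higher than cluster 2 peaks. Their median width was 783 bp (95% interval 776 to 792) in cluster 1 and 662 bp (655 to 666) in cluster 2. The narrowest cluster 1 peak spanned 147 bp and the widest 2665 bp, with quartiles at 705 and 863 bp. Peak scores are those the authors assigned, their scale is not stated, and they were used for ranks inside 1 list at a time. On that ranking the median cluster 1 peak stood at percentile 80.9 (79.5 to 82.7) and the median cluster 2 peak at percentile 41.6 (40.1 to 43.0). The score alone did not separate the clusters: of the 10 highest-scoring peaks of the whole list 6 belonged to cluster 1, and the highest of all belonged to cluster 2. Together cluster 1 peaks covered 671 kb and cluster 2 peaks 2449 kb.

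When the whole list was ranked by score and divided into deciles, cluster 1 took 8 of 439 peaks (1.82%) in the lowest decile and 235 of 440 (53.4%, exact 95% interval 48.6 to 58.1) in the highest. Genes with an H3K4me3 peak over the start codon were ranked by the score of that second mark in the same way. Cluster 1 took 1 of 372 such genes (0.269%) in the lowest H3K4me3 decile and 276 of 373 (74.0%, 69.2 to 78.4) in the highest. The first ranking was of all 4393 peaks and the second of the 3722 genes with both marks over the start codon. Their ranges of cluster 1 shares are therefore not directly comparable. Exact intervals here and below cover counting error only.

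**Figure D1:**
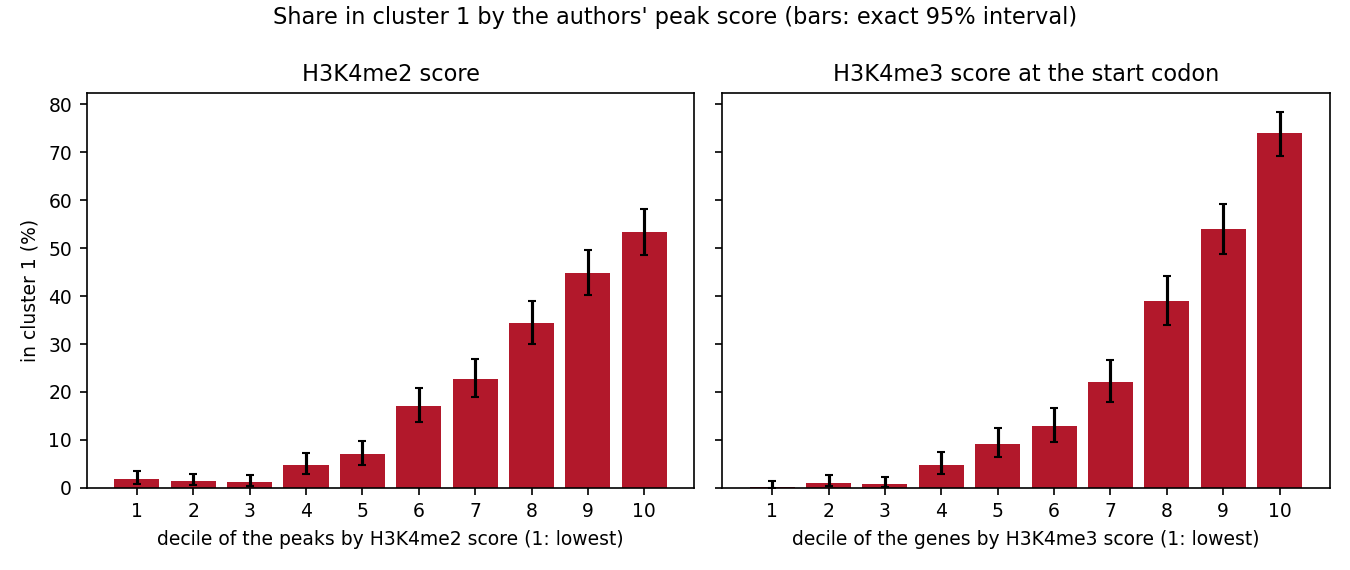
Share of H3K4me2 peaks in cluster 1 by decile of their own score (left) and share of genes in cluster 1 by decile of the H3K4me3 score at the start codon (right), with the lowest decile at 1 on each horizontal axis. The error bars are exact 95% intervals; the share reaches 53.4% in the highest H3K4me2 decile and 74.0% in the highest H3K4me3 decile.

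Nearly all cluster 1 peaks lay over a gene start and under H3K4me3. A start codon was inside 811 of 829 cluster 1 peaks (97.8%, 96.6 to 98.7) and 3182 of 3564 cluster 2 peaks (89.3%), against 90.9% of the whole list. Of the cluster 1 peaks 777 held 1 start codon, 29 held 2, 4 held 3 and 1 held 4. An H3K4me3 peak overlapped 790 of 829 cluster 1 peaks (95.3%, 93.6 to 96.6) and 2972 of 3564 cluster 2 peaks (83.4%), against 85.6% of the whole list. Where it overlapped a cluster 1 peak it covered most of it, since 790 peaks also passed when 50% of the peak had to be covered. The median peak had 93.9% of its bases under H3K4me3 in cluster 1 and 78.3% in cluster 2. Peaks in the upper 50% of the H3K4me3 list by score overlapped 90.3% of cluster 1 peaks and 33.5% of cluster 2 peaks.

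The clusters differed in how far both marks reached into the gene. At 500 bp into the gene 91.5% of cluster 1 genes were still under an H3K4me2 peak, against 66.4% of cluster 2 genes. For H3K4me3 at the same position the shares were 80.7% in cluster 1 and 35.5% in cluster 2. At 750 bp the H3K4me2 shares had dropped to 26.0% in cluster 1 and 11.6% in cluster 2. The H3K4me3 shares had dropped to 15.3% in cluster 1 and 6.14% in cluster 2. Any listed peak at the position counted, also that of a neighbouring gene and also past the end of a short ORF. In cluster 2 the H3K4me2 share was 10.3% at 900 bp and rose to 18.2% at 1500 bp. The shares at 750 bp thus do not give genes under their own peak alone. The median H3K4me2 peak ended 658 bp after the start codon in cluster 1 (649 to 670) and 553 bp after it in cluster 2 (548 to 559). For H3K4me3 the median end was 608.5 bp (597 to 625) in cluster 1 and 460 bp (453 to 467) in cluster 2. Among genes of like score, ranked as described below, both gaps were narrower. In H3K4me3 decile 7 H3K4me3 ended at 549 bp (521 to 572) in cluster 1 and 525.5 bp (516 to 537) in cluster 2. Intervals of this end overlapped in H3K4me3 deciles 6, 7 and 10 and were apart in 8 and 9. With H3K4me2 scores matched they were apart in deciles 6 to 10.

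**Figure D2:**
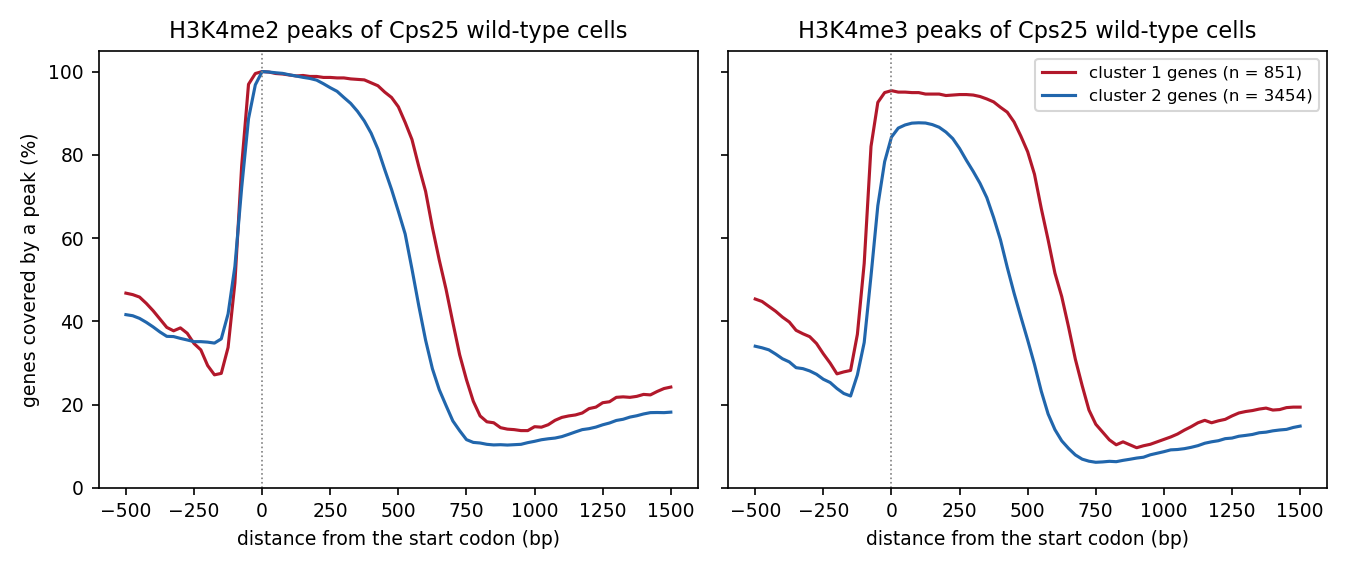
Share of genes covered by an H3K4me2 peak (left) and by an H3K4me3 peak (right) in Cps25 wild-type cells, by distance from the start codon in bp, for cluster 1 genes (red) and cluster 2 genes (blue). At 500 bp the cluster 1 lines stand at 91.5% for H3K4me2 and 80.7% for H3K4me3, and the cluster 2 lines at 66.4% for H3K4me2 and 35.5% for H3K4me3.

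The ends of both marks lay closer together in cluster 1. H3K4me2 reached past H3K4me3 on the downstream side by a median of 40 bp in cluster 1 genes (36 to 45, n = 812) and 93 bp in cluster 2 genes (90 to 97, n = 2910). On the upstream side, over all genes with both marks, the median H3K4me2 edge lay 6 bp inside the H3K4me3 edge in cluster 1, a difference of -6 bp (-7 to -4), and outside it by 21 bp (20 to 21) in cluster 2. H3K4me2 reached further upstream than H3K4me3 at 296 of 812 cluster 1 genes (36.5%, 33.1 to 39.9) and at 2528 of 2910 cluster 2 genes (86.9%, 85.6 to 88.1). In peaks with 1 start codon the upstream difference was -7 bp in cluster 1 and 18 bp in cluster 2, and the downstream one 40 bp in cluster 1 and 93 bp in cluster 2.

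The gap between the clusters was narrower among genes of like score. The deciles here and in the next paragraph differ from those above. They rank the 3170 genes with both marks over the start codon in peaks with 1 start codon. Within the highest H3K4me2 decile the downstream lead of H3K4me2 was 41 bp (34 to 49, n = 179) in cluster 1 and 68 bp (60 to 78, n = 138) in cluster 2. Within the sixth H3K4me2 decile it was 44 bp (26 to 69) in cluster 1 and 75 bp (67 to 82) in cluster 2. With H3K4me3 scores matched, the lead was 27 bp (22 to 32, n = 246) in cluster 1 and 44 bp (29 to 54, n = 71) in cluster 2 in the highest decile. In the sixth H3K4me3 decile the values were 59 bp (51 to 74, n = 41) in cluster 1 and 64 bp (60 to 73, n = 276) in cluster 2. Of the comparisons above, only the highest H3K4me2 decile had intervals apart. They were also apart in H3K4me2 deciles 7, 8 and 9, with 36 bp (26 to 51) in cluster 1 and 71 bp (61 to 79) in cluster 2 in decile 7. In H3K4me3 decile 8 they were apart as well, at 37 bp (30 to 49) in cluster 1 and 60 bp (53 to 67) in cluster 2. In H3K4me3 deciles 7 and 9 they overlapped or touched. The H3K4me2 end itself lay at 608 bp (577 to 629) in cluster 1 and 592.5 bp (580 to 606) in cluster 2 in H3K4me3 decile 7. In H3K4me3 decile 9 it lay at 676 bp (653 to 699) in cluster 1 and 620.5 bp (596 to 644) in cluster 2. Among H3K4me3 deciles 6 to 10 its intervals were apart in decile 9 alone. With H3K4me2 scores matched they were apart in deciles 6 to 9 and overlapped in the highest.

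Upstream, the contrast between the clusters varied with the score that was matched and with the decile. In the highest H3K4me2 decile the upstream difference was -6 bp (-9 to -2) in cluster 1 and 4 bp (2 to 6) in cluster 2, and in the sixth it was -5 bp (-15 to -3) in cluster 1 and 13 bp (11 to 16) in cluster 2. With H3K4me3 scores matched, both clusters had H3K4me2 inside H3K4me3 in the highest decile, by a difference of -15.5 bp (-18 to -13) in cluster 1 and -8 bp (-12 to -4) in cluster 2. In the sixth H3K4me3 decile H3K4me2 lay outside in both, by 7 bp (4 to 13) in cluster 1 and 10 bp (8 to 12) in cluster 2. The order of the marks at the upstream edge was thus the same in both clusters in the sixth and highest H3K4me3 deciles. In H3K4me3 decile 8 it was opposite, at -3 bp (-6 to -1) in cluster 1 and 5 bp (2 to 7) in cluster 2. In decile 7 the values were -1 bp (-5 to 7) in cluster 1 and 6 bp (5 to 8) in cluster 2. In decile 9 they were -7 bp (-11 to -4) in cluster 1 and -1 bp (-3 to 0) in cluster 2.

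The 10 cluster 1 peaks of highest score lay over genes of varied function. HAC1 (YFL031W), which encodes the transcription factor that drives the unfolded protein response, had the top cluster 1 peak, at chromosome VI, 75065 to 76062 (998 bp, score 55.3, sacCer3 coordinates here and below). HST3, a deacetylase of histone H3, followed with a peak of 1054 bp (chromosome XV, 378138 to 379191, score 54.2). RPN12, a lid subunit of the proteasome, had one of 801 bp (chromosome VI, 252418 to 253218, score 53.9). The next 4 lay over PGA1 and IGO1 together (1352 bp), BGL2, a cell wall glucanase (988 bp), ADK1, adenylate kinase (852 bp), and the head-to-head pair BUL1 and DSK2 (1675 bp). LSB1, an actin regulator, FPS1, the glycerol channel, and IPP1, the inorganic pyrophosphatase, completed the 10, with peaks of 819, 916 and 1015 bp. In the ranked 10, H3K4me3 stopped short of H3K4me2 at the single genes that carried both marks. At HST3 H3K4me2 ended 972 bp after the start codon and H3K4me3 756 bp after it, at RPN12 the ends were 713 and 617 bp, and at BGL2 913 and 872 bp. The ends lay closest at ADK1, with H3K4me2 to 756 bp and H3K4me3 to 719 bp, and then at BGL2. HAC1 and IPP1 had no listed H3K4me3 peak. Among the 10 highest peaks of the whole list the 4 in cluster 2 lay over SYG1, TAL1, ERV46 and PDB1, genes named here after their values were seen.

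The widest cluster 1 peaks joined several gene starts. The widest, 2665 bp on chromosome III (263060 to 265724), held the start codons of CSM1, a kinetochore protein, YCR087C-A and ABP1, an actin-binding protein. Next came 2206 bp on chromosome XVI (911179 to 913384) over RPO26, a subunit shared by the nuclear RNA polymerases, MLC2, a myosin light chain, and SKI3, of the RNA-decay Ski complex. A peak of 2190 bp on chromosome V (212655 to 214844) held SMB1, CHZ1 and YPT31, and peaks of 1885 and 1875 bp held HAM1 with LIA1 and TYS1 with TFG1. The 4 start codons in 1 peak were those of KRR1, FYV5, ADF1 and MIC10 (1772 bp, chromosome III, 22646 to 24417). AIM46, NBL1 and RPN10 shared a peak of 1806 bp on chromosome VIII (498046 to 499851). Such joined starts made up 34 of 829 cluster 1 peaks (4.10%) and 243 of 3564 cluster 2 peaks (6.82%), a smaller share in the wider cluster.

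The functional make-up of cluster 1 was read with 38 gene lists covering 1773 genes. The 19.8% of marked genes that fell in cluster 1 is the share set beside each list, but it rises with score. Among genes whose peak reached the lower quartile of cluster 1 scores it was 40.5% (655 of 1617). There nuclear pore genes had 15 of 33, RNA polymerase II and Mediator 9 of 21, mitochondrial ribosomal proteins 18 of 47 and repair 3 of 10. Proteasome genes had 26 of 26 and replication 1 of 11. The part of score in the list shares was not tested. Genes of any list were in cluster 1 at 425 of 1309 start codons in a peak (32.5%), and genes of no list at 426 of 2996 (14.2%). The lists were made with earlier results of these data known, so the shares are descriptions. Members of a list that had no listed H3K4me2 peak do not enter its share, and their number is given for some lists only. Each share thus describes the marked members. Unmarked members were many in some lists: 16 of 21 in hexose transport, 22 of 40 in alternative carbon and glucose repression, and 19 of 45 in nitrogen use. In the cell wall list they were 20 of 54, and in amino acid biosynthesis 15 of 76.

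**Figure D3:**
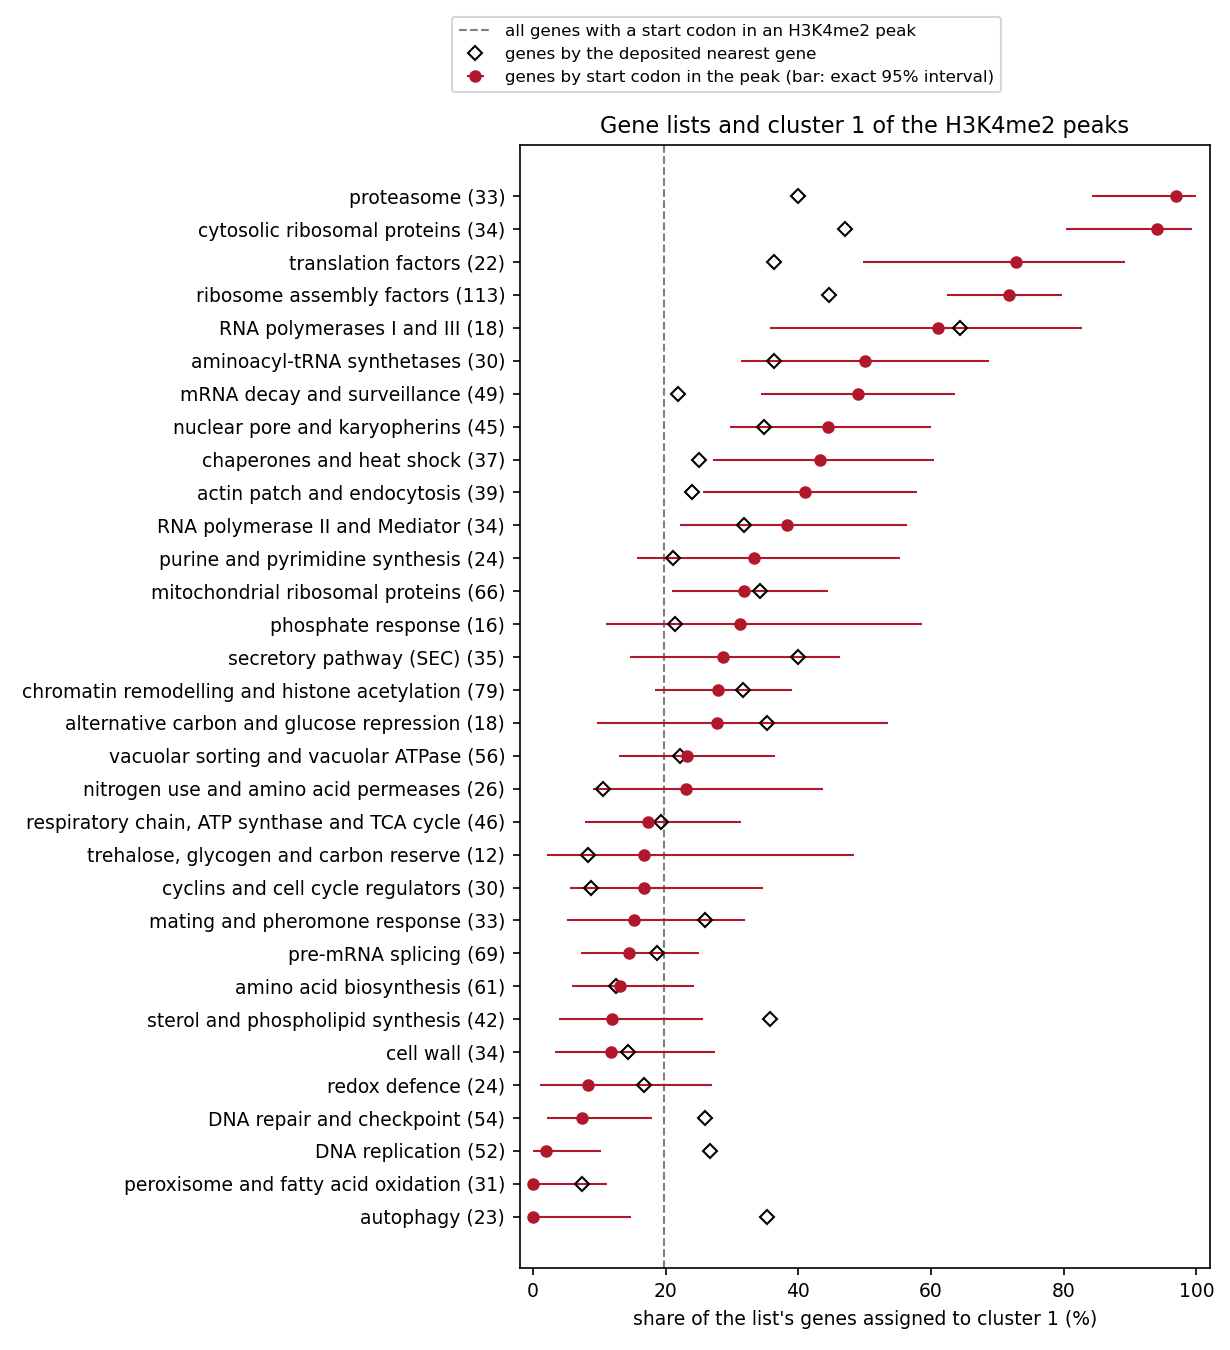
Share of each list's genes in cluster 1, for lists with 10 or more genes in an H3K4me2 peak (number in brackets), by start codon in the peak (red, with exact 95% interval) and by the deposited nearest gene (open diamonds). The dashed line marks 19.8%, the share over all genes with a start codon in a peak; proteasome genes stand at 97.0%, autophagy and peroxisome genes at 0.

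Proteasome genes, which encode the protease that degrades ubiquitinated proteins, were almost wholly in cluster 1. Of 34 genes 33 had their start codon in an H3K4me2 peak, and 32 of these 33 peaks were cluster 1 (97.0%, 84.2 to 99.9). The regulatory particle, which recognises and unfolds substrates, had 18 of 18 genes there, and the core particle, which cuts them, 12 of 13. The other members in cluster 1 were UMP1, a core assembly factor, and RPN4, the transcription factor of proteasome genes. PRE3, a catalytic core subunit, was the exception in cluster 2, at score percentile 52.6. PRE1, a core subunit, had no listed H3K4me2 peak but had an H3K4me3 peak at percentile 85.6, and a set1 deletion H3K4me2 peak lay over its ORF.

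The H3K4me2 scores of the cluster 1 proteasome genes spread widely, with RPT3 lowest at percentile 46.7 and RPN12 highest at 99.9. H3K4me3 scores ranked higher: the median over the list was percentile 95.4 for H3K4me3 and 82.8 for H3K4me2. Among H3K4me3 scores the lowest was RPN4 at 57.0 and the highest PUP1 at 99.9. H3K4me2 ended 518 bp after the start codon at UMP1 and 870 bp after it at RPN3, and the median over the list was 702 bp, against 571 bp over all marked genes. The median end of H3K4me3 over the list was 679.5 bp, against 495.5 bp over all genes with such a peak. PRE3 had peaks of similar length, with H3K4me2 to 676 bp and H3K4me3 to 679 bp, but its H3K4me3 score stood at percentile 61.9. RPN5 had no listed H3K4me3 peak, and a set1 deletion H3K4me3 peak lay there.

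**Figure D4:**
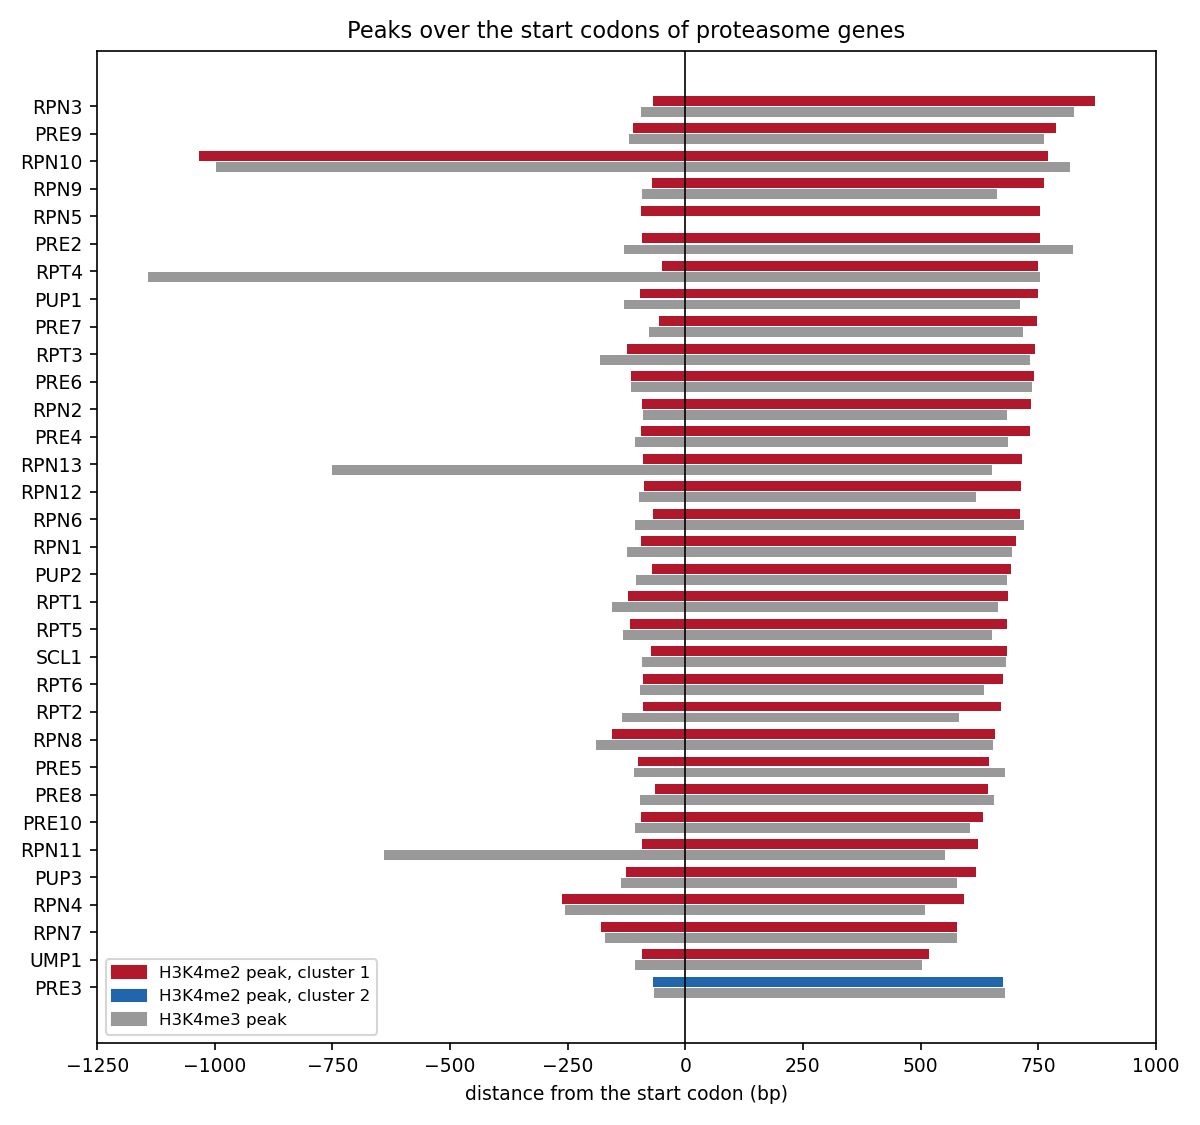
Extent of the peaks over the start codon of the 33 proteasome genes with an H3K4me2 peak, in bp from the start codon, sorted by the downstream end of H3K4me2. Red bars are H3K4me2 peaks of cluster 1, the blue bar at PRE3 is cluster 2, and grey bars are H3K4me3 peaks; RPN5 has none.

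Ribosome assembly factors were the list with the most cluster 1 genes of the 38. Of these 120 genes, whose products process and fold ribosomal RNA in the nucleolus, 113 were marked and 81 of these lay in cluster 1 (71.7%, 62.4 to 79.8). NOG1, a GTPase of the large subunit, stood highest at score percentile 99.3, then HAS1, an RNA helicase, at 99.2 and KRI1 at 96.9. The UTP genes of the small subunit processome had 12 of 16 in cluster 1. RNA polymerases I and III, which transcribe ribosomal and transfer RNA, had 11 of 18 (61.1%, 35.7 to 82.7), among them RPC82 at percentile 99.1, RPA14 at 94.4 and RPA135 at 92.4.

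Of the 137 genes for cytosolic ribosomal proteins 34 had their start codon in a listed H3K4me2 peak, and 32 of these were in cluster 1 (94.1%, 80.3 to 99.3). The other 103 had no listed peak, and 101 of them lay within 500 bp of an H3K4me2 peak of set1 deletion cells. The names of the wild-type lists say that such peaks were removed. The share therefore describes the minority that was listed. Their H3K4me2 scores were low for cluster 1: the median score percentile over the list was 44.3, whereas the median H3K4me3 percentile was 87.9. RPL35B had the highest H3K4me2 score, at percentile 98.5 with an H3K4me3 percentile of 99.98, then RPS7B at 91.2 and RPL14B at 81.4. RPL15A was low in H3K4me2 at percentile 7.49. H3K4me3 ended at a median of 570 bp over the list and H3K4me2 at 566.5 bp. Many of these genes have a near-identical copy, and the authors' treatment of reads that match both is not given, so their values are uncertain.

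Among translation factors 16 of 22 marked genes were in cluster 1 (72.7%, 49.8 to 89.3). A further 16 of the 38 genes had no listed H3K4me2 peak, and 11 of these lay within 500 bp of an H3K4me2 peak of set1 deletion cells. TIF4631, the initiation factor eIF4G, stood at percentile 97.5, GCD1, a subunit of the exchange factor eIF2B, at 96.1, and SUP35, the release factor, at 94.2. The initiation factors eIF2, eIF2B and eIF3 had 7 of 11 marked genes in cluster 1, and 4 of their 15 genes had no listed H3K4me2 peak. Aminoacyl-tRNA synthetases, which load amino acids on transfer RNA, split by the compartment they were listed under. A gene that serves both compartments was counted in a single group. Enzymes listed as cytosolic were in cluster 1 at 15 of 18 genes, led by TYS1 at percentile 96.8, VAS1 at 95.5 and DED81 at 94.1. FRS2, ALA1 and HTS1 were in cluster 2. Enzymes listed as mitochondrial were in cluster 1 at 0 of 12 genes (up to 26.5% by the exact interval). This split was made after the values were seen, as were the other subdivisions of lists given here.

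The marks over both sets of enzymes differed as well. The median end of H3K4me2 was 799 bp in the cytosolic enzymes and 476 bp in the mitochondrial ones, and the median H3K4me3 percentile was 91.7 in the cytosolic and 20.5 in the mitochondrial ones. Mitochondrial ribosomal proteins held an intermediate place, with 21 of 66 in cluster 1 (31.8%, 20.9 to 44.4), among them MRPL4 at percentile 99.6, MRP13 at 95.9 and MRPS12 at 93.1.

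Chaperones and heat shock genes had 16 of 37 in cluster 1 (43.2%, 27.1 to 60.5). ZUO1, a chaperone of the ribosome, stood at percentile 98.3, MDJ1 at 91.6 and SSC1, the mitochondrial Hsp70, at 90.8. The CCT chaperonin, which folds actin and tubulin, had 6 of 8 there, with CCT6 and TCP1 in cluster 2.

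Genes of RNA polymerase II and of Mediator, the complex that links it to activators, had 13 of 34 in cluster 1 (38.2%, 22.2 to 56.4). The polymerase supplied 10 of these 13, led by RPB2 at percentile 93.9, RPO21 at 88.3 and RPB8 at 87.1, and Mediator the other 3, ROX3, MED7 and MED2. Several Mediator genes in cluster 2 scored higher, such as PGD1 at percentile 99.5 and SIN4 at 98.3. The elongation factors of the Paf1, Spt4-Spt5, Spt6 and FACT groups, which travel with the polymerase, had 7 of 11: PAF1, CTR9, SPT5, SPT6, SPT16, POB3 and DST1. RTF1, SPT4, CDC73 and LEO1 were in cluster 2. 

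Genes of mRNA decay and surveillance were in cluster 1 at 24 of 49 (49.0%, 34.4 to 63.7), with RRP4, an exosome subunit, at percentile 99.3, NAM7, the nonsense-decay helicase, at 97.8 and RRP45 at 96.4. The CCR4-NOT deadenylase had 5 of 8 and the exosome 5 of 12. Pre-mRNA splicing genes had 10 of 69 (14.5%, 7.17 to 25.04), with PRP43 at percentile 98.2, CWC2 at 89.8 and CWC27 at 84.4. Nuclear pore and karyopherin genes, which carry cargo through the nuclear envelope, had 20 of 45 (44.4%, 29.6 to 60.0), with CRM1, the export receptor, at 97.8, NUP100 at 97.5 and NDC1 at 94.97.

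Chromatin remodelling and acetylation genes had 22 of 79 in cluster 1 (27.8%, 18.3 to 39.1), with DEP1 at percentile 99.4, CHD1, a remodelling ATPase, at 96.3 and SNT1 at 95.7. Of the genes of COMPASS, the methylating enzyme, 7 were marked and 0 lay in cluster 1. The exact interval reaches 41.0% and includes the 19.8% of all marked genes. SET1 had a cluster 2 peak at percentile 65.3. SDC1 had no listed H3K4me2 peak, and a set1 deletion peak of that antibody lay over its ORF. Of the core histone list 3 of 11 genes were marked, and the variant HTZ1 was in cluster 1 at percentile 96.4, with CSE4 at 77.3 and HHO1 at 71.6 in cluster 2. Of the 8 without a listed peak 7 lay within 500 bp of a set1 deletion H3K4me2 peak.

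Membrane traffic was divided. Actin patch and endocytosis genes had 16 of 39 in cluster 1 (41.0%, 25.6 to 57.9), led by ARP3 at percentile 99.6, ARC15 at 97.5 and ABP1 at 96.7. Genes of the secretory pathway had 10 of 35 (28.6%, 14.6 to 46.3), with the coat subunits SEC24 at 98.6, SEC21 at 98.3 and SEC23 at 97.1. The list of vacuolar genes had 13 of 56 (23.2%, 13.0 to 36.4), but its complexes differed. The vacuolar ATPase, the proton pump of the organelle, had 9 of 14, with VPH1 at percentile 98.6, VMA6 at 97.6 and VMA13 at 95.1. The VPS sorting genes had 3 of 37 (8.11%, 1.70 to 21.9).

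Energy metabolism was divided in the same way. The list of respiration genes had 8 of 46 in cluster 1 (17.4%, 7.82 to 31.4). ATP synthase supplied 6 of its 12 genes, with ATP2 at percentile 99.6 and ATP1 at 96.4. The respiratory chain supplied 2 of 19, COX6 at 92.5 among them, and the TCA cycle 0 of 15 (up to 21.8% by the exact interval). Glycolysis had 6 of 22 genes marked and 3 of them in cluster 1, PFK2, PFK1 and PGI1, all with a set1 deletion peak over the ORF. Of the 16 glycolytic genes without a listed peak 12 lay within 500 bp of a set1 deletion H3K4me2 peak.

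Biosynthetic pathways mostly lay near or below the share of all marked genes. Amino acid biosynthesis had 8 of 61 in cluster 1 (13.1%, 5.84 to 24.2), with CYS3 at percentile 95.3, HIS1 at 94.9 and BAT1 at 89.8. Sterol and phospholipid synthesis had 5 of 42 (11.9%, 3.98 to 25.6), with OPI1, a repressor of phospholipid genes, at 97.7, PIS1 at 97.4 and FAS2 at 95.7. Purine and pyrimidine synthesis had 8 of 24 (33.3%, 15.6 to 55.3), with ADK1 at 99.8, PRS3 at 99.1 and URA5 at 95.2.

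DNA replication and repair were almost absent from cluster 1. Replication genes had 1 of 52 there (1.92%, 0.0487 to 10.3), DBF4, the regulator of the kinase that fires origins, at percentile 95.1. The MCM helicase and GINS genes had 0 of 10. Repair and checkpoint genes had 4 of 54 (7.41%, 2.06 to 17.9): RAD52 at percentile 94.97, RAD23 at 72.2, RAD6 at 71.8 and MSH3. RAD52 shared its peak with NDC1, a nuclear pore gene, and RAD23 and RAD6 also act in ubiquitin-dependent pathways. Both lists scored low in H3K4me2 over their marked genes, at a median percentile of 49.1 for replication and 34.2 for repair, against 55.4 over all marked genes.

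Autophagy genes had 0 of 23 in cluster 1 (up to 14.8% by the exact interval) and peroxisome and fatty acid oxidation genes 0 of 31 (up to 11.2%). Their median H3K4me2 percentiles were 32.2 for autophagy and 32.0 for peroxisome genes. Meiosis and sporulation genes were seldom marked at all, with 3 of 59 in a peak and 0 in cluster 1. The subtelomeric PAU, COS and FLO families had 1 of 39 in a peak and 0 in cluster 1. Cell wall genes had 4 of 34 in cluster 1, among them BGL2, PKC1, the kinase of the cell integrity pathway, at percentile 94.8 and CCW14 at 93.4. Redox defence had 2 of 24, SOD2 at 93.6 and YAP1 at 88.9.

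Lists of regulated pathways in between each held a few cluster 1 genes. Phosphate response had 5 of 16, with PHO86 at percentile 81.0, VTC4 at 80.9 and PHO2 at 77.1. Alternative carbon and glucose repression had 5 of 18, including both proteins of the general corepressor, CYC8 at 99.1 and TUP1 at 98.4, and HAP3 at 96.1. Nitrogen use had 6 of 26, with the permeases CAN1 at 97.6 and LYP1 at 84.1, and GZF3 at 79.2. Mating and pheromone response had 5 of 33, with STE20 at 93.1, STE6 at 82.0 and GPA1 at 78.8. Cyclins and cell cycle regulators had 5 of 30, with CDC14 at 99.6, NDD1 at 76.7 and CDC5 at 69.5. Trehalose and glycogen had 2 of 12, NTH1 at 65.6 and GLG2 at 3.46, and hexose transport 1 of 5, STD1 at 91.0.

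Cluster 1 peaks without H3K4me3 were few, and most lay at places bound in set1 deletion cells. Of the 39 such peaks 34 (87.2%) overlapped an H3K4me3 peak of set1 deletion cells. In cluster 2 the same held for 20 of 592 (3.38%). Because such places were removed from the wild-type lists, whether wild-type H3K4me3 was present at these 34 peaks cannot be read from the lists. Away from set1 deletion H3K4me3 peaks by more than 500 bp, 4 of 710 cluster 1 peaks (0.563%) and 535 of 3362 cluster 2 peaks (15.9%) had no H3K4me3. The highest-scoring of the 39 were HAC1 and IPP1, described above, then SCH9, a nutrient-signalling kinase (958 bp, chromosome VIII, 508882 to 509839). PFK2 and PFK1, the phosphofructokinase subunits, followed with 1654 bp (chromosome XIII, 673173 to 674826) and 1505 bp (chromosome VII, 972478 to 973982). Each of these 5 peaks overlapped a set1 deletion H3K4me3 peak. Those away from such peaks that are described here scored low: FMP23 at percentile 11.2, the peak over GLG2 and YJL136W-A at 3.46, and the peak near RPS10B at 2.26.

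Set1 deletion peaks lay close to cluster 1 more often than to cluster 2. A peak of either antibody in set1 deletion cells lay within 500 bp of 175 of 829 cluster 1 peaks (21.1%, 18.4 to 24.0) and 293 of 3564 cluster 2 peaks (8.22%), against 10.7% of the whole list. Of the genes, 81 of 851 in cluster 1 (9.52%) and 56 of 3454 in cluster 2 (1.62%) had a set1 deletion H3K4me3 peak over the ORF. For set1 deletion H3K4me2 peaks over the ORF the counts were 18 genes in cluster 1 (2.12%) and 62 in cluster 2 (1.80%). The share was 6.75% over all genes and 1.86% over marked genes. Per the list names such peaks were removed from the wild-type H3K4me2 list, so these low shares cannot compare the clusters. Peaks of either antibody nearby and H3K4me3 peaks over the ORF, both found without Set1, thus moved with cluster membership. Their part in the cluster values was not tested. Without peaks near set1 deletion peaks the share of cluster 1 under H3K4me3 was 99.5%. With ORFs under a set1 deletion peak left out, 37 of the 38 list shares stayed inside their intervals. The exception was glycolysis, with 0 of its 3 remaining marked genes in cluster 1.

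The 18 cluster 1 peaks without a start codon were mostly shorter than the median cluster 1 peak. They included peaks overlapping the ORFs of the ribosomal protein genes RPS11B, RPS17B, RPL8B, RPS18B, RPL20B and RPL21B, 6 in all. The start codon nearest to the peak at RPL20B was that of DGK1, 244 bp away. The largest in score lay in PRT1, a subunit of eIF3, 62 bp from its start codon, at percentile 92.7 and 897 bp wide. Others lay 207 bp from the start of RPN12, 243 bp from that of MES1, a tRNA synthetase, and 210 bp from that of CCT8. Some were among the lowest-scoring cluster 1 peaks, with the peak near RPS10B at percentile 2.26, the one near MON1 at 3.96 and the one near RPL39 at 4.62. The peak over GLG2 and YJL136W-A, at 3.46, was as low and held 2 start codons.

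Cluster 1 genes lay beside other cluster 1 genes more often than cluster 2 genes did. A divergent upstream neighbour, transcribed away from a shared promoter region, was present for 489 of 851 cluster 1 genes (57.5%, 54.1 to 60.8) and 1771 of 3454 cluster 2 genes (51.3%, 49.6 to 53.0), against 52.5% of all marked genes. Where that neighbour had a peak of its own, it was in cluster 1 for 171 of 352 cluster 1 genes (48.6%, 43.2 to 53.9) and 182 of 1047 cluster 2 genes (17.4%, 15.1 to 19.8). A pair with both members in cluster 1 was counted from both sides. For tandem upstream neighbours with a peak of their own the shares were 76 of 256 (29.7%, 24.2 to 35.7) for cluster 1 genes and 234 of 1236 (18.9%, 16.8 to 21.2) for cluster 2 genes. The difference between the clusters was larger for divergent than for tandem neighbours, and that contrast was not tested.

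**Figure D5:**
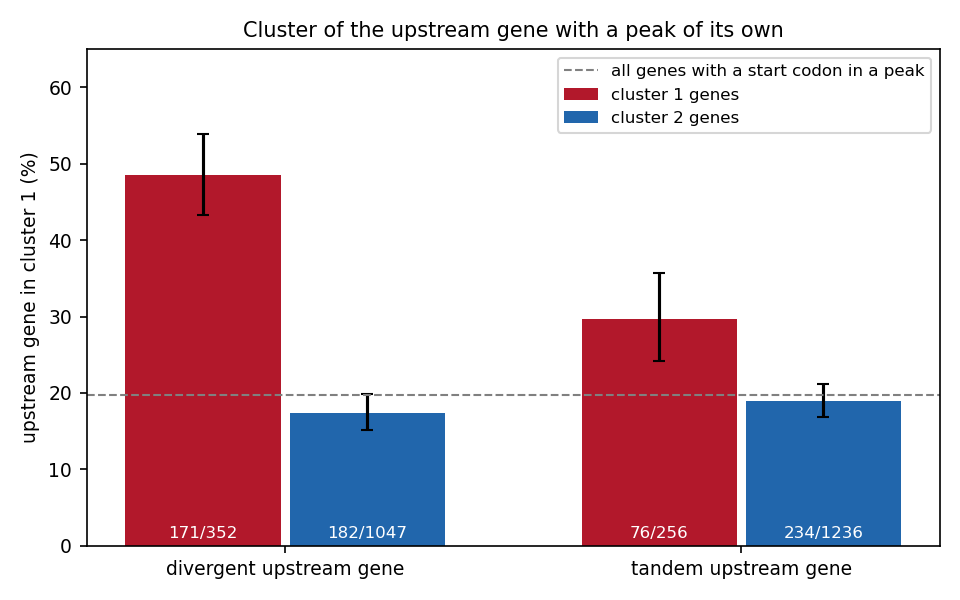
Share of upstream neighbours with a peak of their own that were in cluster 1, in percent, for cluster 1 genes (red) and cluster 2 genes (blue), with exact 95% intervals and counts in the bars; the dashed line is the 19.8% of all marked genes. For divergent neighbours the bars stand at 48.6% for cluster 1 genes and 17.4% for cluster 2 genes, and for tandem ones at 29.7% for cluster 1 genes and 18.9% for cluster 2 genes.

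Along the chromosomes the next listed peak was again cluster 1 after 235 of 829 cluster 1 peaks (28.3%, 25.3 to 31.5) and was cluster 1 after 592 of 3548 cluster 2 peaks (16.7%, 15.5 to 18.0). Cluster 1 peaks stood singly in 413 places, in runs of 2 in 137, of 3 in 34 and of 4 in 10. The first 3 runs of 4 in chromosome order held genes of unlike function. The run on chromosome IV from 765624 to 770041 held GIR2, ENT5, CPR1, a cyclophilin, and RPA14 with YDR157W. Another on chromosome VI from 249134 to 253218 held PRE4 and RPN12, both proteasome genes, RET2, a coatomer gene, and a peak with no start codon. On chromosome VII from 643139 to 648424 lay SLX9, TOM20, GCD2 and MRP13, genes of ribosome assembly, mitochondrial import, translation initiation and the mitochondrial ribosome. The share of peaks in cluster 1 was 12.9% on both chromosome I (8 of 62) and chromosome XII (47 of 364, 9.64 to 16.8), the lowest of the chromosomes, and was highest on chromosome IX, at 34 of 147 (23.1%, 16.6 to 30.8).

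Other gene features differed by small amounts. ORF length had a median of 1284 bp (1206 to 1329) in cluster 1 and 1323 bp (1287 to 1359) in cluster 2, with overlapping intervals. Genes within 40 kb of a chromosome end made up 48 of 851 cluster 1 genes (5.64%) and 161 of 3454 cluster 2 genes (4.66%), against 541 of all 6002 genes (9.01%). A convergent downstream neighbour was present for 447 cluster 1 genes (52.5%) and 1879 cluster 2 genes (54.4%). Genes on the Watson strand numbered 384 of 851 in cluster 1 (45.1%, 41.7 to 48.5) and 1778 of 3454 in cluster 2 (51.5%, 49.8 to 53.2), with intervals that do not overlap. The intervals were apart as well for the median distance to the downstream ORF, 317 bp (303 to 334) in cluster 1 and 282 bp (276 to 288) in cluster 2. A standard gene name was held by 825 cluster 1 genes (96.9%, 95.6 to 98.0) and 3234 cluster 2 genes (93.6%, 92.8 to 94.4).

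The authors' deposited table names a nearest gene for each peak, and for cluster 1 it was nearly always a neighbour of the marked gene. The start codon of the named gene lay inside the peak for 0 of 829 cluster 1 peaks, which allows a share of up to 0.444% by the exact interval, and for 4 of 3564 cluster 2 peaks. For the peak over HAC1 the authors' deposited table gives YFL031C-A, for HST3 it gives YOR024W, for RPN12 YFR052C-A, for PGA1 and IGO1 ASI2, and for BGL2 UPA1. Of the 851 genes with a start codon in cluster 1, 234 (27.5%) were named nearest gene of a cluster 1 peak, 299 of cluster 2 peaks only, and 318 of none. Since no cluster 1 peak held the start codon of its named gene, these 234 were named for a cluster 1 peak other than their own. Read from the other side, 234 of 721 cluster 1 nearest genes with a known position (32.5%) had their start codon in a cluster 1 peak, 326 in a cluster 2 peak and 161 in none.

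Gene group shares changed with that choice. By nearest gene 721 of 3323 genes were in cluster 1 (21.7%), and the proteasome list had 10 of 25 there (40%), the ribosomal proteins 39 of 83 (47.0%) and the assembly factors 33 of 74 (44.6%). Autophagy had 6 of 17 (35.3%), against 0 of 23 by start codon, and DNA replication 8 of 30 (26.7%). The authors' deposited table of gene ontology terms for cluster 1 lists 59 terms and that for cluster 2 lists 21, with 1 term in both. In the authors' deposited table for cluster 1, translation had 82 genes against 41 expected (ratio 2, p = 1.02e-10) and ribosome biogenesis 44 against 21.2 expected (ratio 2.07, p = 1.06e-06). For cluster 2 the authors' deposited table gives protein folding, with 49 genes against 36.55 expected (ratio 1.34, p = 0.00363), and the response to endoplasmic reticulum stress, with 31 against 20.3 expected (ratio 1.53, p = 0.00105). The ratio of cluster 2 to cluster 1 gene numbers implied by the expected counts of the authors' deposited tables was 3.81, next to 3.803 for the nearest genes and 4.06 for the start codon genes.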

How the data were processed

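Peaks came from 4 lists, 1 library each. Bowtie 1.1.2, MACS2 2.1.1 and build sacCer3 are named in the submitters' processing notes, with no settings or roles. The authors deposited a score per peak whose scale is not stated; it served for ranks and filters inside 1 list. Per the file headers the H3K4me2 list also holds a cluster number, a nearest gene and a distance. The authors deposited gene ontology tables with gene counts, a ratio of observed over expected counts and a Fisher p-value, not stated to be adjusted. Per the list names, set1 deletion peaks were removed from the wild-type lists. Depth is unknown.

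Positions of start codons were read from RefSeq's gene table for assembly R64 (6477 genes), with strand read from the systematic name. Of 4018 deposited distances 99.9% were met within 2 bp. Overlaps needed 1 bp and gave the same counts as bedtools 2.31.1 on 12 pairs of lists. Shares carry Clopper-Pearson intervals and medians order-statistic intervals, both at 95%. Python 3.11.15, numpy 2.4.6, pandas 2.3.3, scipy 1.17.1 and matplotlib 3.10.9 were used, and the code was tested on simulated data. Of 1785 names in the gene lists 4 were not found.

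The cluster members, gene lists and tests were chosen with earlier results of these data known. Named genes are those of the 10 highest, 5 lowest and 5 widest cluster 1 peaks, the 5 highest without H3K4me3, 3 of the longest runs (first in chromosome order), the 5 peaks with most start codons, up to 3 cluster 1 members of each list by score, each cluster 1 member of the COMPASS, histone and short lists, SET1, SDC1, and 5 peaks whose deposited nearest gene differs. Cluster 2 genes and members of subdivided lists were named after their values were seen. Alternatives were the upper 50% of peaks by score, standard names, 100 bp around the peak, the first 500 bp of the ORF, peaks with 1 start codon, peaks more than 500 bp from set1 deletion peaks, and the deposited nearest gene. Filters on score in the gene lists, ORFs under no set1 deletion peak and matched deciles were added after seeing the data. The other 13 libraries and promoter sequence were not analysed here. 1 of the lowest-scoring peaks is not reported here.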

Additional observations from a re-analysis of the deposited data

How the results depend on the processing

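Of the cluster 1 peaks 97.8% held a start codon, 99.8% in the upper 50% by score and 95.8% with standard-named genes alone. The share overlapping H3K4me3 was 95.3%, but 90.3% against the upper 50% of that list and 99.5% away from set1 deletion peaks. The median peak centre moved to 279.75 bp after the start codon in the upper 50% by score, from 272.5 bp. With the deposited nearest gene in place of the start codon, divergent neighbours made up 63.4% of cluster 1 genes and the median ORF length was 1068 bp. By that assignment cluster 1 held 47.0% of the ribosomal protein list, 44.6% of assembly factors, 40% of proteasome genes, 36.4% of translation factors, 26.7% of replication genes and 35.3% of autophagy genes, and 277 genes of any list in place of 425. Of the 38 list shares 12 moved outside their interval, 4 of them higher and 8 lower. An alternative chosen after seeing the data kept peaks scoring at least the lower quartile of cluster 1. Of the genes left, cluster 1 held 6 of 6 in the ribosomal protein list and 26 of 26 in the proteasome list (100% each). It held 57 of 68 assembly factors (83.8%). Over all genes in such peaks the share was 40.5% (655 of 1617), against 19.8% without this filter; 16 list shares moved, 15 of them higher. Start codons within 100 bp of a peak moved none of the 38 shares outside its interval. The cause of these shifts was not tested.

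No paired analysis was possible because each group had 1 peak list. The planned motif search was not run, since promoter sequence was not used here. With 1 list per group no difference was set against replicate spread, and with the depth unknown an unlisted peak does not show that the mark was absent. Gene lists overlap in members, and genes sharing a peak share its values. Of the 137 ribosomal protein genes 101 had no listed peak and lay near a set1 deletion peak.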
